A study of Hordeum vulgare with 21 samples.

Results

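Messages high from steep to day 1 came from 66 of the 35826 genes measured in a malting time course of barley grain (Hordeum vulgare). They were chosen by their level in TPM, a read count divided by transcript length and scaled to a common sum in each library. A member had a mean of at least 10 TPM out of the steep and again after 1 day of germination, and these 2 means lay within 2-fold of each other. Each of the 2 means was also at least 3 times the dry mean and at least 3 times the means of days 2 and 5. The rise after the dry stage and the fall to days 2 and 5 are therefore what chose the genes, and they are described here without a test. Days 3 and 4 played no part in the choice. The filter on low counts kept 20637 genes for testing, all 66 members among them.

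The grain was cultivar Conrad, a 2-row spring barley for malting, sampled as whole seed, and all groups shared this cultivar and 1 mixed lot of 5 grain samples from 4 growing regions. The stages were unmalted mature seed (Dry), steeped grain before germination (DoG0) and grain germinated for 1, 2, 3, 4 and 5 days (DoG1 to DoG5), each with 3 libraries, replicates A, B and C. The 3 malting runs of 110 g each were steeped for 38 h, with 4 h in water at 16 °C alternating with 4 h of air at 18 °C, to 45% moisture. They were then germinated at 17 °C with a collection every 24 h. The dry libraries have no malting run behind them, and p-values measure the spread between runs and between dry samples of 1 grain lot, which may be technical. In whole seed, fewer cells of a type and less RNA per cell cannot be told apart. The labelled tissue could not be checked against marker genes, because the files give IDs without gene names and no ID matched the reference table.

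Dry cereal grain is alive but nearly inactive, and it carries messages stored during ripening. Water uptake restarts respiration, protein synthesis and transcription, first in the embryo, and immersion limits oxygen while the air rests restore it. Later the embryo and its shield release gibberellin, and the aleurone, the living layer around the starchy endosperm, answers by making amylases and other enzymes that digest the reserves. What the 66 genes do in this sequence cannot be read from their IDs.

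Total expected counts, which are estimated read counts per gene, ran from 18145400 to 31582116 per library. Every member had at least 48 counts in every DoG0 and DoG1 library. In some stages the members' levels differed between replicates. Their summed TPM was 3838 in DoG1 replicate A against 7089 and 6345 in replicates B and C. It was 1453 in DoG2 replicate C against 760.25 and 749 in A and B. It was 1697 in Dry replicate C against 729.97 and 661.9 in A and B, but the most abundant member alone held 826.9 TPM of it, against 85.0 and 37.2 TPM, and replicate C was the highest dry library in 25 of 66 members by log2 CPM (counts relative to the TMM-scaled library total).

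The members spanned 2 orders of magnitude in abundance and together made up under 1% of the transcript pool even at their height. The mean of the DoG0 and DoG1 levels, called the plateau here, ran from 10.9 to 1166 TPM with a median of 43.4 TPM. It reached 100 TPM in 17 members and stayed under 20 TPM in 11. All 66 together held 0.103% ± 0.0579 of TPM in dry grain, 0.688% ± 0.0586 at DoG0 and 0.576% ± 0.170 at DoG1. At DoG2 they held 0.0988% ± 0.0403, and then 0.0798% ± 0.0285, 0.0601% ± 0.00270 and 0.0733% ± 0.00768 at DoG3, DoG4 and DoG5 (SD, n = 3 each). The 3 most abundant members accounted for 35.1% of the summed plateau. Without these 3, the summed level was 548.2 ± 117 TPM in dry grain, 4351 ± 277 at DoG0, 3857 ± 942 at DoG1, 734 ± 193 at DoG2 and 474 ± 7.92 at DoG4, so the course was the same in outline.

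The most abundant member alone held 18.4% of the summed plateau, and its dry libraries were far apart. It stood at 1118, 1531 and 1422 TPM in the 3 DoG0 libraries and at 489.8, 1504 and 932.4 TPM in the 3 DoG1 libraries. Its dry values were 85.0, 37.2 and 826.9 TPM, and its DoG2 values 51.0, 64.4 and 348.0 TPM. The C libraries of both stages thus lay far above the other 2, and Dry replicate C lay above DoG1 replicate A. At DoG4 it was low in all 3 libraries, at 39.5, 61.5 and 44.1 TPM.

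**Figure D1:**
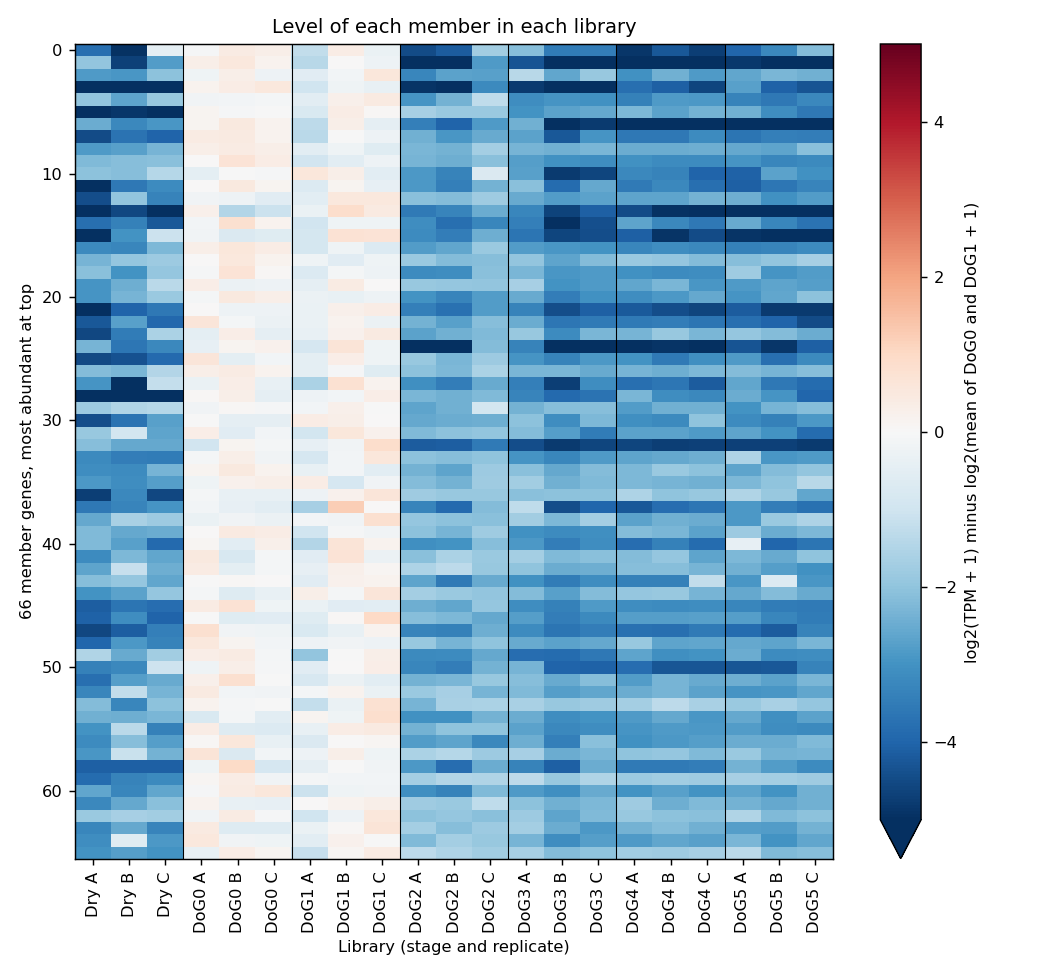
Level of each of the 66 members (rows, most abundant at top) in each of the 21 libraries (columns), as log2(TPM + 1) minus log2(plateau + 1). White is the plateau and blue is below it, and values under -5 take the darkest blue. The 6 DoG0 and DoG1 columns are pale, with DoG1 replicate A slightly blue in most rows, and the other 15 columns are blue.

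Within the plateau the members leaned to either side. The ratio of the DoG1 mean to the DoG0 mean ran from 0.505 to 1.97, inside the limits the rule sets, with a median of 0.945. The DoG0 mean was the higher in 38 members and the DoG1 mean in 28. All 3 DoG0 libraries lay above all 3 DoG1 libraries in 17 members, where 22.7% of the tested genes did so, and the reverse held in 2 members, where 33.7% did. DoG1 replicate A was the lowest of its stage in 55 of the 66 members by log2 CPM, where 37.2% of tested genes placed it so. In edgeR 11 members were called lower at DoG1 and none higher, where 23.8% and 28.4% of tested genes were, in a comparison the rule bounds. A different order was seen in a member with 144.7, 44.1 and 57.8 TPM at DoG0 and 95.8, 223.5 and 166.9 TPM at DoG1, the member with the largest ratio of DoG1 to DoG0.

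In dry grain the members were low but seldom absent. The dry mean was 0 to 32.3% of the plateau, with a median of 13.6%, and lay under 1 TPM in 7 members. One member had no count in any dry library, which allows up to 3 counts in each, and had 103, 247 and 65 counts in the DoG0 libraries. All 6 DoG0 and DoG1 libraries lay above all 3 dry libraries in 62 members, where 37.7% of tested genes met this. In a fit of counts (edgeR quasi-likelihood test, Benjamini-Hochberg adjusted p under 0.05) 61 members were called higher at DoG0 than in dry grain, where 29.2% of tested genes were higher and 32.0% lower. The rule fixed that direction, so neither count supports it.

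The size of the rise depended on the unit. Over 14272 genes with at least 1 TPM at every stage, the median log2 ratio of DoG0 to dry grain was 0.52 in TPM and -0.12 in CPM, a shift of 0.64. Among the members with a dry count the same median was 2.91 in TPM and 2.26 in CPM. Between DoG1 and DoG2 the shift was smaller, 0.18, with a median log2 ratio of DoG1 to DoG2 of 2.32 in TPM and 2.15 in CPM for the members. With the same rule on CPM 33 genes qualified, and 31 of them were members. CPM is not divided by transcript length, so the floor of 10 is not the same threshold in that unit. The member with no dry count had 3.69, 9.73 and 2.41 CPM at DoG0, under this floor whatever its rise. The smaller number therefore does not measure the rise alone.

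On log2(TPM + 1) the largest rises were those of 2 members that were low in dry grain. The order depends on that scale, since the fitted log2 fold change from dry grain to DoG0 was larger than that of the first of them in the member with no dry count and in the fourth most abundant member. HORVU.MOREX.r3.4HG0415490 had 3.65, 5.83 and 2.37 TPM in dry grain and 221.0, 190.9 and 195.6 TPM at DoG0, a mean of 3.95 ± 1.75 against 202.5 ± 16.2 TPM (SD, n = 3 each). It kept 117.4, 257.7 and 206.7 TPM at DoG1 and had 61.5, 53.4 and 53.7 TPM at DoG2. The DoG0 and DoG2 libraries stood close together within their stages. Relative to their means the dry and DoG1 libraries did not, and every dry library lay below every later one.

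After the plateau this gene settled at an intermediate level. It had 24.4, 30.2 and 33.1 TPM at DoG3, 40.6, 30.4 and 37.9 TPM at DoG4 and 36.7, 22.3 and 15.9 TPM at DoG5. From DoG2 to DoG5 it fell by 1.15 on the log2 scale with an SE of 0.31 (edgeR adjusted p = 0.0129). The adjusted p was 0.0523 without DoG5 replicate B and 0.0562 without DoG5 replicate C. At DoG4 all 3 libraries lay above all 3 dry ones, with a fitted log2 fold change of 2.57 (SE 0.35).

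HORVU.MOREX.r3.3HG0278710 had 0.310, 0.390 and 0.660 TPM in dry grain, then 58.2, 69.0 and 40.7 TPM at DoG0 and 46.6, 50.5 and 70.9 TPM at DoG1. The DoG0 and DoG1 libraries overlapped. It fell to 10.6, 9.75 and 11.2 TPM at DoG2 and 4.81, 2.90 and 3.44 TPM at DoG3, and its DoG4 and DoG5 libraries ran from 2.62 to 10.6 TPM. At DoG4 all 3 libraries lay above all 3 dry ones, with a fitted log2 fold change of 3.38 (SE 0.49).

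The largest falls on the same scale were those of 2 members that ended below dry grain. HORVU.MOREX.r3.4HG0394960, the second most abundant member, had 139.8, 20.7 and 78.8 TPM in dry grain, 665.4, 782.9 and 616.3 TPM at DoG0 and 211.9, 550.0 and 465.5 TPM at DoG1. Its DoG2 libraries were split, with 8.47 and 9.14 TPM in A and B and 75.7 TPM in C. It had 26.3, 7.86 and 8.46 TPM at DoG3, 3.65, 2.97 and 6.11 TPM at DoG4 and 18.4, 7.14 and 10.4 TPM at DoG5.

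All 3 DoG4 values of this gene lay under its lowest dry value. The fitted log2 fold change from dry grain to DoG4 was -4.97 with an SE of 0.93. HORVU.MOREX.r3.3HG0239110 went from 9.36, 6.69 and 6.67 TPM in dry grain to 22.1, 47.5 and 40.9 TPM at DoG0 and 32.3, 38.6 and 80.9 TPM at DoG1. It then dropped to 1.53, 1.57 and 2.89 TPM at DoG2, and no later library exceeded 1.09 TPM.

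All 3 DoG4 libraries of this gene lay under its lowest dry library, with a fitted log2 fold change of -3.94 (SE 0.44). From DoG2 to DoG5 it fell by 1.45 on the log2 scale (SE 0.45, edgeR adjusted p = 0.0256). That call was lost without DoG2 replicate C (adjusted p = 0.120), without any 1 DoG5 library (0.0568 to 0.0685) and in limma on log2(TPM + 1) (0.0626). The 4 genes were picked by the size of the rise from dry grain or of the fall to days 2 to 5. Their differences from dry grain and from the plateau are therefore descriptions without a test, and the 2 falling genes also had to be low at every stage from DoG2 to DoG5.

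**Figure D2:**
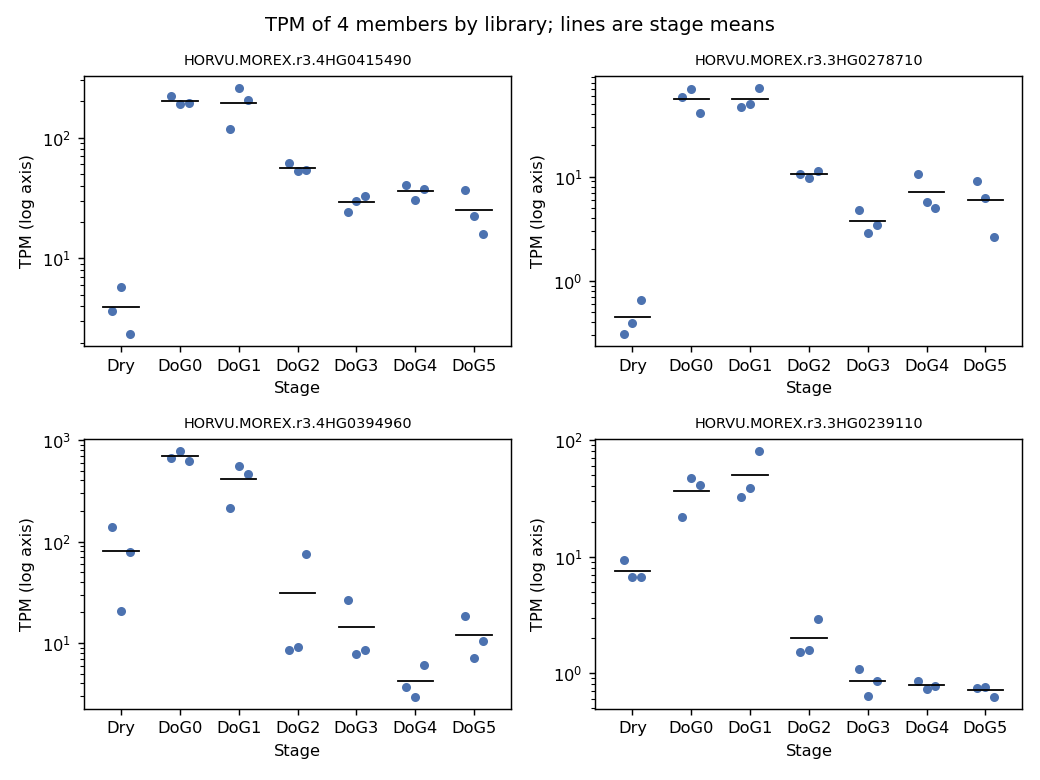
TPM of 4 members in each library (points, log axis) at the 7 stages, with the stage mean as a line. The upper 2 genes start near 0.453 and 3.95 TPM in dry grain and end above it, and the lower 2 start at 7.57 and 79.7 TPM and end below it.

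By day 2 the members had fallen, as the rule required, to a residue that differed between them. At DoG2 they held 4.57% to 31.7% of their plateau, with a median of 18.7%, the upper end being what the rule allows. All 6 DoG0 and DoG1 libraries lay above all 3 DoG2 libraries in 66 members, where 23.5% of tested genes met this. In edgeR all 66 were called lower at DoG2 than at DoG1, where 17.0% of tested genes were lower and 19.7% higher. The rule fixed that direction, and nothing is read from these counts.

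At days 3 and 4, which the rule did not use, the members were also low. The median over members was 12.7% of the plateau at DoG3, with a range of 1.98% to 29.7%, and 12.4% at DoG4, with a range of 0.719% to 31.5%. Taken library by library, the median was 12.4% ± 3.87 at DoG3 and 11.5% ± 0.255 at DoG4 (SD, n = 3 each). The other 9640 genes with at least 10 TPM at DoG0 and DoG1 had medians of 83.0% and 81.8% at the same stages. In 66 of 66 members the lower plateau mean was at least 3 times the DoG3 mean and at least 3 times the DoG4 mean, so no member returned in between. In 65 of 66 members all 6 plateau libraries lay above all 6 libraries of days 3 and 4, where 21.8% of tested genes met this. The exception had 11.3 TPM in its lowest plateau library and 15.5 TPM in its highest day 3 library. The rule chose the plateau values as high and held the stages before and after days 3 and 4 low. The other genes were not chosen in this way. The differences from them are therefore descriptions and not an independent test of the fall.

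**Figure D3:**
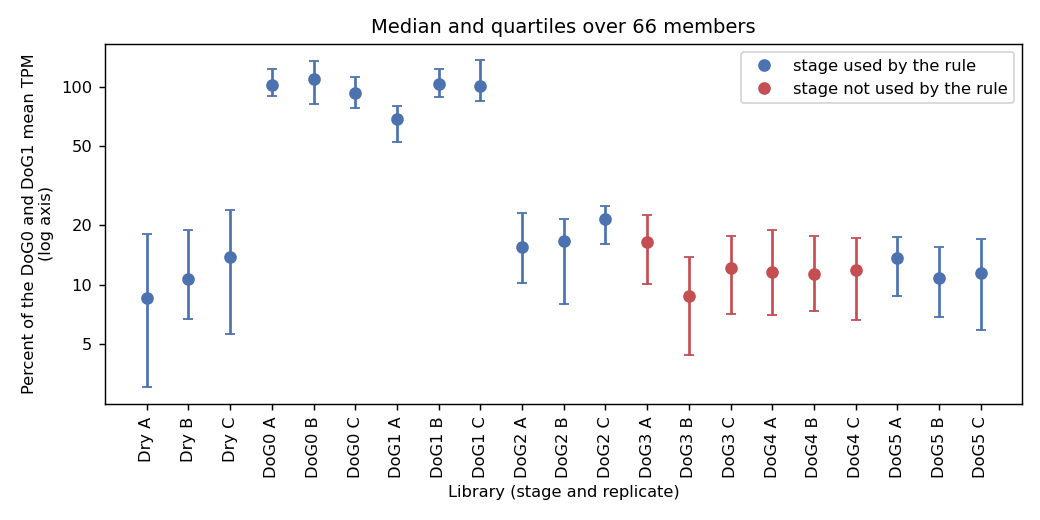
Median (point) and quartiles (bars) over 66 members of the level in each library, as a percentage of the plateau on a log axis. Red marks the 2 stages that the rule did not use. DoG1 replicate A sits at 68.9%, the other 5 plateau libraries between 93.0% and 109.8%, and the DoG4 libraries between 11.3% and 11.8%.

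Between day 3 and day 4 no member passed the test. This is the comparison in which neither stage chose the genes, and of all tested genes 0.0145% were called higher and 0.136% lower (edgeR adjusted p under 0.05). At an unadjusted p under 0.05 there were 9 members. The share of all tested genes at that threshold was not counted, so nothing is read from the 9. With DESeq2 also no member was called after adjustment, where 221 of all genes were. The median log2 fold change of the members was -0.15, against -0.00 over all tested genes, and became 0.03 without DoG3 replicate A. Between day 4 and day 5 no member was called either, where 0.107% of tested genes were higher and 0.0194% lower. There was 1 member at an unadjusted p under 0.05, again without a share of all tested genes. DESeq2 called no member, where 140 of all genes were called. Here DoG5 is a stage that the rule held low.

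Over the whole span from day 2 to day 5 a part of the members went on falling and none was called higher. In edgeR 16 of 66 members, 24.2%, were lower at DoG5 than at DoG2, where 12.6% of tested genes were lower and 13.2% higher. The rule held both stages low and did not set one against the other. The median log2 fold change was -0.68 over the members and 0.03 over all tested genes, and that of the members was -0.35 without DoG2 replicate C. Among the 16 it ran from -3.26 to -0.88. These 16 stood at a median of 18.4% of the plateau at DoG2 and 8.73% at DoG5, and the other 50 at 18.9% and 14.5%. The split was made by this call, so the lower DoG5 level of the 16 follows from it. Their median plateau was also higher, 98.0 against 40.0 TPM in the other 50. The call was uneven over libraries: without DoG2 replicate C 8 members were lower and 1 was higher, and without DoG5 replicate B 9 were lower. Calls over all genes, in either direction, numbered 5313 in the full fit, 3661 without DoG2 replicate C and 3708 without DoG5 replicate B.

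Within this span, the step from day 2 to day 3 was the only one with calls. The rule held DoG2 low and did not use DoG3. In 54 members the mean TPM was lower at DoG3 than at DoG2, a count not made over all tested genes. In 21 members all 3 DoG3 libraries lay below all 3 DoG2 libraries, where 18.8% of tested genes did so. In edgeR 2 were called lower and none higher, where 0.838% and 1.14% of tested genes were. Their plateaus were 35.7 and 26.5 TPM. One had 7.85, 6.33 and 9.66 TPM at DoG2 and 3.49, 3.11 and 3.37 TPM at DoG3, a mean of 7.95 ± 1.67 against 3.32 ± 0.194 TPM (SD, n = 3 each). Its log2 fold change was -1.23 with an SE of 0.30 (edgeR adjusted p = 0.0437), and its mean at DoG5 was 7.30 TPM. The other went from 4.59 ± 1.45 to 2.26 ± 0.626 TPM (SD, n = 3 each; edgeR adjusted p = 0.0498) and to 1.55 TPM at DoG5. Without DoG3 replicate A 1 member was called, and without any other single library of the 2 stages none was. The median log2 fold change of all members, -0.57, was -0.24 without DoG2 replicate C.

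By their stage means, not all members declined to the end. The DoG5 mean was above the DoG2 mean in 18 members, and DoG5 was the highest of the last 4 stages in 14. The lowest of these 4 stages was DoG5 in 28 members, DoG4 in 18, DoG3 in 16 and DoG2 in 4. These counts were not made over all tested genes, and no member was called higher at DoG5 than at DoG2. The largest factor from DoG2 to DoG5, 2.42, rested on 1 library, with 3.24, 19.08 and 3.34 TPM at DoG5. The fourth most abundant member dipped to 5.62 TPM at DoG3 and stood at 18.3 ± 12.2 TPM at DoG5, with 32.3, 12.3 and 10.2 TPM in the 3 libraries. Its DoG2 libraries had 6.30, 4.91 and 22.9 TPM, so the libraries of the 2 stages overlapped through DoG2 replicate C.

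**Figure D4:**
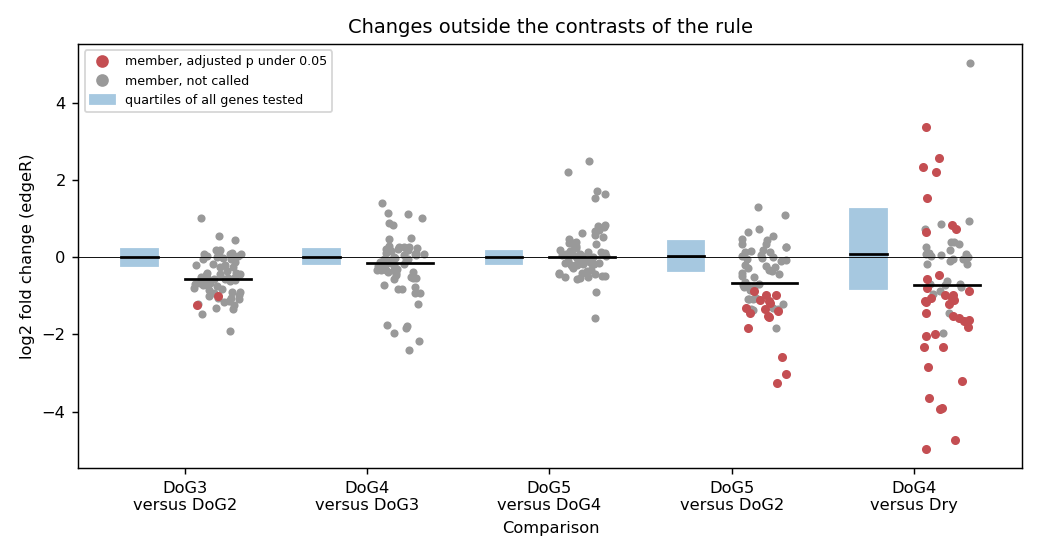
Fitted log2 fold changes of the 66 members (points, red where the edgeR adjusted p was under 0.05; black line, median) beside the quartiles of all 20637 tested genes (blue boxes; black line, median). The members' medians lie at -0.57, -0.15, -0.00, -0.68 and -0.71 from left to right, and red points appear below 0 for DoG3 versus DoG2 and DoG5 versus DoG2 and on both sides of 0 for DoG4 versus Dry. The grey point near 5 in the last column is the member with no dry count, whose fitted value depends on the prior of the fit.

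Whether more members were called below or above dry grain at DoG4 differed between the fit of counts and the fits of log TPM. This comparison, DoG4 against Dry, was chosen after the data were seen, and the rule held the dry level low. In edgeR with TMM scaling 29 members were lower and 8 higher, where 33.4% and 37.4% of tested genes were. By TPM all 3 DoG4 libraries lay below all 3 dry libraries in 15 members, where 17.7% of tested genes did so. With scaling by library size only the counts were 21 lower and 11 higher. In limma on log2(TPM + 1) 10 members were lower and 14 higher, and on log2(TPM + 0.1) 10 and 17. Calls over all genes numbered 14511 by library size, 14546 on log2(TPM + 1) and 14855 on log2(TPM + 0.1). These were not split by direction, so the change in direction is not read as a result about the members. Over all tested genes the median log2 fold change was 0.09 in the edgeR fit, 0.39 by library size and 0.48 in limma on log2(TPM + 1), and that of the members -0.71, -0.41 and 0.04, below that of all genes in each of these 3 fits. Without Dry replicate B the members' median in the edgeR fit was -0.26.

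In DoG1, DoG2 and DoG3, and less so in DoG0 and DoG5, many members deviated the same way in a library. By log2 CPM, DoG3 replicate A was the highest of its stage in 54 of 66 members and replicate B the lowest in 53, where 36.7% and 32.5% of all tested genes placed them so. The members' median deviation from the stage mean was 0.40 in replicate A and -0.34 in replicate B, and that of all tested genes 0.00 and 0.01. At DoG1 replicate A deviated by -0.52 and was the lowest in 55 members, and at DoG2 replicate C deviated by 0.29 and was the highest in 42, each against 37.2% of tested genes. DoG0 replicate B deviated by 0.20 and was the highest in 37 members, where 38.8% of tested genes placed it so. DoG5 replicate A deviated by 0.21 and was the highest in 38, against 38.4% of tested genes. The dry libraries, with deviations from -0.04 to 0.00, and the DoG4 libraries, with deviations from -0.08 to 0.02, showed little of this. DoG3 and DoG4 were not used to choose the genes, and the other stages were.

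**Figure D5:**
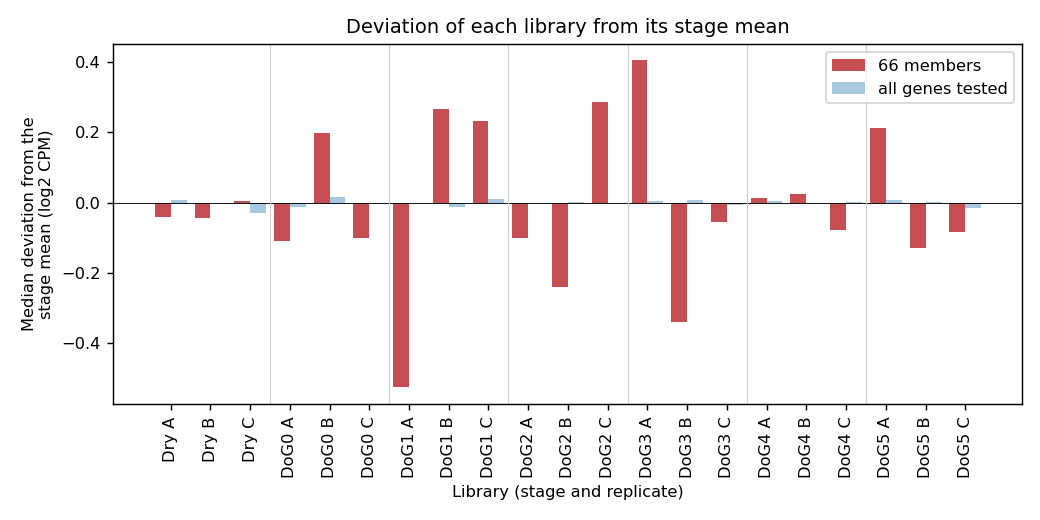
Median deviation of log2 CPM from the stage mean in each library, over the 66 members (red) and over all 20637 tested genes (blue). The members' bars reach 0.40 in DoG3 replicate A and -0.52 in DoG1 replicate A, and those of all genes stay between -0.03 and 0.02.

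Transcript length and shared reads were not used by the rule. Relative transcript length, the ratio of expected count to TPM scaled to a library median of 1, had a median of 1.08 over the members, with quartiles of 0.653 and 1.39. It was 1.06 over the 9706 tested genes with at least 10 TPM at DoG0 and DoG1, and 0.978 over the 20472 tested genes with a length. A fractional expected count in any library (off a whole number by more than 1e-09) marks reads shared with a similar sequence. It occurred in 17 members, 25.8%, and in 18.5% of tested genes. Of the named genes HORVU.MOREX.r3.3HG0239110 had such a count, 2858.97, in DoG1 replicate C only, and its level is uncertain to that extent.

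By the chromosome code in the ID, members came from all 7 barley chromosomes. There were 14 on 3H, 11 each on 2H and 4H, 9 each on 5H and 7H, 8 on 6H and 4 on 1H. As a share of the tested genes of a chromosome this was 0.443% on 4H, the highest, and 0.150% on 1H, the lowest. In 4 pairs the numbers in the IDs differed by at most 50, with 0 or 1 tested gene numbered between them, 1 pair each on 2H, 3H, 4H and 6H. Both genes of the 2H pair and of the 3H pair had fractional counts, so their values may be split between similar copies. HORVU.MOREX.r3.4HG0415490 belongs to the 4H pair, and its partner, numbered 30 higher, had a plateau of 113.8 against 198.2 TPM and a DoG1 to DoG0 ratio of 1.77 against 0.958. Genome positions were not used here, and whether near numbers mean near genes is not given in the sources used here.

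The boundary of the group was not sharp. At least 10 TPM and a plateau within 2-fold were found in 8391 genes, and the lower plateau mean was 3 to 3.5 times the highest of the dry, DoG2 and DoG5 means in 21 members and 2.5 to 3 times in 51 non-members. The member nearest to the limit had a ratio of 3.01, with 54.1 TPM at DoG0 against 18.0 TPM in dry grain. The nearest gene outside had 2.99, with 16.5 against 5.51 TPM.

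The rule was also applied to 2 replicates at a time, and the replicate left out was read alone. Without replicate A 81 genes were chosen, and in replicate A the lower plateau value lay above the dry, DoG2 and DoG5 values in 64 of them and was at least 3 times each in 25. Without replicate B these numbers were 63, 60 and 38, and without replicate C they were 80, 78 and 33. The whole rule, floor and 2-fold limit included, was met in the replicate left out by 17, 28 and 26 of these genes. The same counts were not made over all genes, and the letters were not taken to pair the libraries. These numbers are therefore descriptions and not a test of the group. Of the 66 members 43, 50 and 51 were among the genes chosen without A, B and C.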

How the data were processed

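RNA of whole barley seed was sequenced after poly-A selection with a stranded kit, per the labels' protocols. The authors deposited expected counts and TPM per gene. Per the submitters' processing notes, the tools included STAR and RSEM, with no version or role. The sources used here do not give the genome build, annotation or strand setting.

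The reference table (MorexV3_pseudomolecules_assembly, 58438 genes) matched none of the 35826 IDs, so gene lists and markers were not used. Members were chosen on TPM. Expected counts were rounded and filtered (filterByExpr by stage, minimum count 10), which left 20637 genes. They were scaled by TMM and fitted in 1 quasi-likelihood model of 7 stages (edgeR 4.0.16, R 4.3.3). Benjamini-Hochberg adjustment covered all tested genes, with a threshold of 0.05. SEs are the absolute log2 fold change over the square root of F, and log2 CPM used a prior count of 2. DESeq2 1.42.0 and limma 3.58.1 served as alternatives. The fit was tested on simulated data.

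Of the members, 4 IDs were named: the 2 with the largest rise from dry grain and, of the rest, the 2 with the largest fall to the highest of the DoG2 to DoG5 means, on log2(TPM + 1) and from the lower plateau mean. Intervals and limits of 0 counts cover counting error only. Members, rule and comparisons were chosen with earlier results of these data known.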

Additional observations from a re-analysis of the deposited data

How the results depend on the processing

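The number of genes meeting the rule was 249 at a fold of 2, 32 at a fold of 4 and 33 on CPM, and ran from 48 (without DoG1 replicate B) to 87 (without DoG1 replicate A) with libraries or a replicate letter left out. Single-library omissions and the comparison of DoG4 with dry grain were chosen after seeing the data. Members called between DoG3 and DoG4 were 0 in every setting except 3 with only the 6 libraries of the step, and between DoG4 and DoG5 they were 0 throughout. The exception had 64 members tested and 1163 calls over all genes, against 31 in the full fit. Between DoG2 and DoG3 the 2 calls became 1 by library size, 1 without a filter, 6 in DESeq2, 13 with 6 libraries only and 0 to 1 with a library left out. Over all genes the calls were 409 in the full fit, and 323, 300, 1097, 2440 and 75 to 178 in these settings. Between DoG2 and DoG5 the 16 became 9 to 15 with a library left out and 9 with both rule and test run without DoG2 replicate C. Over all genes the calls were 5313, 3398 to 4643 and 3661. Against dry grain, the 37 calls at DoG4 became 24 in limma on log2(TPM + 1), and 30 to 35 with a library left out. Over all genes the calls were 14625, 14546 and 13794 to 14715. The median DoG4 level of 12.4% of the plateau was 13.2% in CPM and 11.6% to 12.3% with a library left out, and the members' DoG4 share of 0.0601% was 0.0631% of expected counts. The causes of these differences were not tested.

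Replicate letters are shared by all stages, but in no comparison was every same-lettered pair's correlation of deviations over 0.1, and the letters were not taken to pair the libraries. Over the 5 comparisons these correlations ran from -0.217 to 0.195. They were all positive for DoG5 versus DoG4 and for DoG5 versus DoG2, where 5 of 6 libraries correlated best with their own letter, as a hint from the data, and at most 1 of 6 did so in the other comparisons. With the letter as a block, 0, 0, 0, 15 and 36 members were called for DoG3 versus DoG2, DoG4 versus DoG3, DoG5 versus DoG4, DoG5 versus DoG2 and DoG4 versus Dry, against 2, 0, 0, 16 and 37 without it. In the same order, the calls over all genes were 275, 23, 25, 4913 and 14471, against 409, 31, 26, 5313 and 14625.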
